A study of Mus musculus with 12 samples.

Results

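The 2352 intervals described here are stretches of m6A-enriched RNA signal in mouse embryonic stem cells that a transposable element enters without filling. They were chosen from 74299 deposited intervals, of which they are 3.17%. A member overlaps at least 1 bp of a LINE, SINE, LTR or DNA transposon locus, no family covers 50% or more of it, and it lies on an autosome other than 6, 8 and 11. Its signal averages at least 1 over all 6 libraries, so the mean level helped to choose the members and is given only as a description. Without that minimum the rule finds 2663 intervals, and 311 of them fell below it. A mean of at least 1 was reached in all 3 genotypes by 2167 members, in 2 genotypes by 159 and in only 1 by 26. The lowest means among members were 1.003, 1.025 and 1.030, and the highest among the intervals left out were 0.9998, 0.997 and 0.993. At the limit on cover, the 3 most covered members had 49.9%, 49.9% and 49.8% of their length in 1 family, and the least covered intervals beyond it had exactly 50%. Each member was grouped by the family that covers most of it.

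The series profiled RNA of the chromatin-associated fraction by m6A immunoprecipitation and sequencing (MeRIP-seq) in cells of the E14TG2a line, grown with LIF and 2 kinase inhibitors. The genotypes are Alkbh5 del-cIDR, in which a part of Alkbh5 named as an intrinsically disordered region is deleted, Alkbh5 KO, and WT, with 2 libraries each among the values used here. In the tables the columns taken as del-cIDR are headed KI, the only name left once KO and WT were placed, and both KO columns carry the name KO6, so they may come from 1 line. The columns were read as immunoprecipitated because the tables are labelled as m6A matrices. With 0 columns read as input, a difference between genotypes can be in m6A, in the amount of RNA or in the number of gene copies, and these cannot be told apart. Nothing in the labels says that replicates are separate cultures, so each p-value measures the spread between these samples, which may be technical.

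As background, m6A is placed on nascent RNA by a methyltransferase complex and removed by a small number of demethylases, of which Alkbh5 is one. RNA that stays on chromatin includes introns, antisense and promoter transcripts and RNA of transposable elements, and m6A on such RNA is known to influence its decay and the state of the chromatin around it. Mouse B1 is a SINE derived from the signal recognition particle RNA, B2 and ID are SINEs derived from tRNA, and B4 is a composite of ID and B1 sequence. L1 is the autonomous LINE, and L2 and MIR are ancient families. ERVK, ERVL, MaLR and ERV1 are LTR families, where ERVK holds the IAP elements and ERVL the MERVL elements.

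Depth was even, from 13234793 to 15145206 interval reads per library. Reads of the unmodified spike-in differed between replicates, with 5127 and 4239 in del-cIDR, 4364 and 2679 in KO, and 4580 and 1729 in WT. Whether enrichment was even between libraries was not tested. Values are whole reads times 1 factor per library, set by the m6A spike-in, which had 814 and 849 reads in del-cIDR, 1379 and 1870 in KO, and 1172 and 1106 in WT. On this deposited scale the median interval of all 37759 tested shifted by a log2 change of 0.46 in del-cIDR against WT, by -0.35 in KO against WT and by 0.79 in del-cIDR against KO. Relative changes below are a set's median log2 change minus that shift, and centred values have each library set to its own median. The SE beside a relative change is that of the set's centred library medians. These are not reduced by the medians of all tested intervals, so the SE leaves out the error of the shift. The typical member had 102 reads per library, and 1.83% of members had fewer than 10.

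SINEs led the set. B1 was the main family of 683 members (29.0%), B4 of 298, B2 of 269, MIR of 47, ID of 40 and other SINEs of 28, so that SINEs made up 58.0% of the members. L1 led in 284 members, L2 in 24 and other LINEs in 6. Among LTR families, MaLR led in 276, ERVK in 220, ERVL in 72, ERV1 in 30 and other LTRs in 2, and DNA transposons led in 73. The 10589 intervals on the same chromosomes that 1 family covers to at least 50%, with the same minimum, had another makeup: 59.6% were LINE, 34.6% LTR and 5.65% SINE, against 13.4%, 25.5% and 58.0% of the members. The limit on cover itself sorts families by element length, so this contrast is in part set by the rule. The B1 elements measured inside members had a median of 104.5 bp, and the majority-covered intervals a median length of 513 bp.

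Most members carried a small piece of 1 element. The median member was 359 bp long (200 to 5822 bp) and had 24.7% of its length in elements, from 0.0954% to 97.7%. In 187 members several families together covered 50% or more. Elements came from 1 locus in 1718 members and from 1 family in 1827, with up to 6 loci and 4 families. The leading element ran past an edge of the interval in 1435 members (61.0%) and lay wholly inside in 917. Placement varied with family: the element ran past the edge in 78.5% of L1 members, 77.3% of B2 members and 73.9% of MaLR members, but in 45.5% of B1 members and 37.5% of ID members.

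In signal per kb of interval, the members stood between both kinds of interval around them. Their median was 33.8 signal per kb (quartiles 13.5 and 88.0), against 61.8 in 12193 intervals free of any repeat and 5.60 in the majority-covered ones. Within the set, the median was 59.6 signal per kb in ID members, 46.5 in DNA transposon members, 44.3 in B1 members, 24.3 in L1 members, 22.3 in ERVK members and 20.8 in ERVL members. These levels are a description, since the mean signal was part of the choice. Of all interval reads, the members held 7.44% and 7.18% in del-cIDR, 6.53% and 6.58% in KO, and 7.30% and 7.56% in WT.

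A B1 member at chr19:5851020-5852658 held 1.94% and 1.64% of all interval reads in del-cIDR, 1.11% and 1.23% in KO, and 1.74% and 2.03% in WT. Its signal was 47075 and 39822 in del-cIDR, 16074 and 12213 in KO, and 26730 and 33575 in WT. The KO libraries were the 2 lowest, and elements cover only 10.0% of this interval. Its log2 change in KO against WT was -1.10 ± 0.34 (SE, adjusted p = 0.0204), and the highest adjusted p on leaving out 1 library was 0.453. Without it, the members held 5.51% and 5.54% of interval reads in del-cIDR, 5.43% and 5.35% in KO, and 5.56% and 5.53% in WT, a range of 5.35% to 5.56% over all 6 libraries.

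The other strong members given here changed less in KO against WT. The L1 member with the highest mean, chr4:98624639-98626202, had a signal of 1284 and 1185 in del-cIDR, 1025 and 666 in KO, and 746 and 840 in WT. The strongest DNA transposon member, chr13:97630757-97632537, had 1717 and 1680 in del-cIDR, 874 and 586 in KO, and 1187 and 1263 in WT. The strongest ERVK member, chr1:30868708-30870464, had 895 and 927 in del-cIDR, 494 and 324 in KO, and 624 and 599 in WT. None of these 3 passed the test in KO against WT, with adjusted p-values from 0.0886 to 0.921, and none passed it in del-cIDR against WT, with adjusted p-values from 0.178 to 0.308. KO and WT overlapped at the L1 member and did not at the other two.

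Whether the signal of a member sits on its element or beside it was read where 1 element lies inside the interval and both tables give reads. In 504 such members with at least 60 reads over the libraries, reads per base on the element were 1.08 times those on the rest of the interval at the median (quartiles 0.535 and 1.83). B1 elements had a median ratio of 0.806 (190 members, 110 of them below 1) and ERVK elements one of 0.587 (53 members, 33 below 1). The ratio was 1.27 on B4 elements (68 members), 1.73 on MIR (19), 1.60 on ERVL (13) and 1.50 on DNA transposons (25). Elements with no read at all numbered 26, of which 12 were B1 and 10 ERVK. Both tables count the same libraries. Whether they treat reads that map to several places alike is not stated, and its part in these ratios was not tested. The elements were short, with a median of 99.5 bp, from 72 bp in ERVK to 150 bp in B2. How a read that lies only partly on an element was counted is not stated either. Such reads could raise the ratio of a short element, which was not tested.

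**Figure D1:**
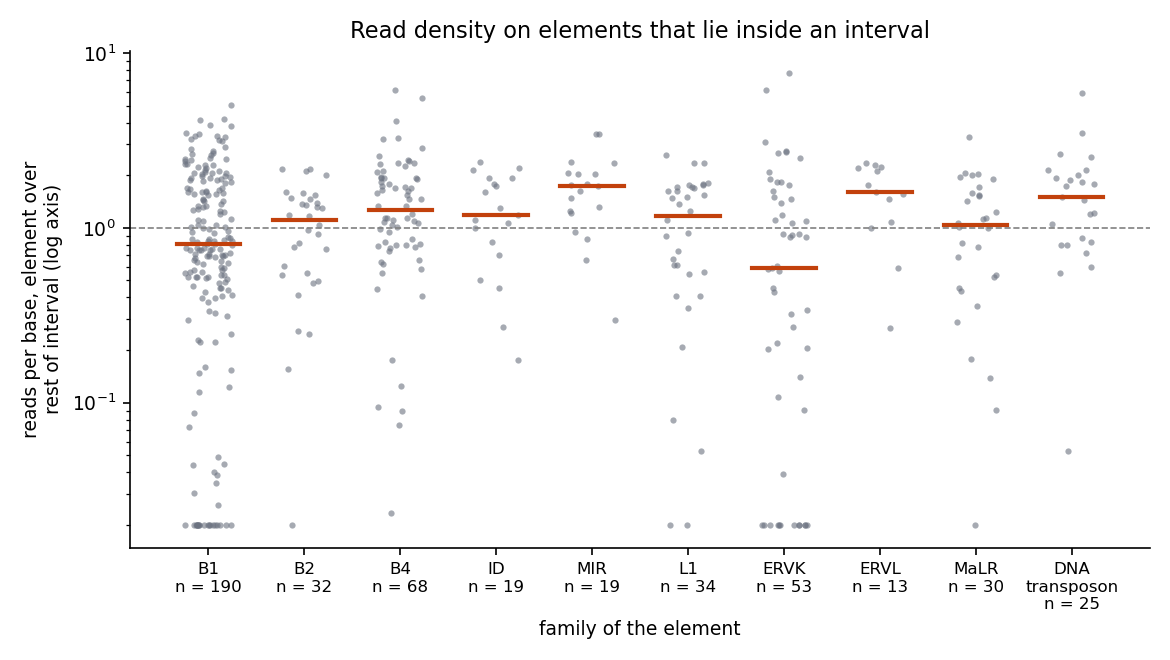
Reads per base on the element divided by reads per base on the rest of the interval (log axis), for members with 1 element inside and at least 60 reads, by element family. Points are members, orange bars are medians and values under 0.02 are drawn at 0.02; the B1 (0.806) and ERVK (0.587) medians lie below 1, with points at the floor, and the other 8 medians lie above it.

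In KO against WT the members changed mostly downward. With limma over all tested intervals, 351 members fell and 16 rose, which is 15.6% of the set. The background was 11.0% of all tested intervals, with 10.0% lower and 0.985% higher, and in the intervals free of repeats 12.4% were called. After centring, 246 members were lower and 68 higher, which is 13.4% against a background of 12.0%. On the scale of the ERCC RNAs 186 were lower and 88 higher, which is 11.6% against a background of 11.8%, so both the split and the excess over the background depended on the scale. The relative change of the set was -0.10 ± 0.04 (SE, 2 libraries each), against -0.07 ± 0.07 for the intervals free of repeats and 0.11 ± 0.08 for the majority-covered ones. Both KO libraries had member medians below both WT libraries, at -0.11 and -0.16 in KO and 0.03 and -0.03 in WT. This was not particular to the members. All tested intervals had -0.030 and -0.033 in KO against 0.026 and -0.026 in WT. Intervals free of repeats had -0.064 and -0.143 in KO against 0.051 and -0.051 in WT. With 2 libraries a genotype, an exact permutation test of such medians cannot go below a two-sided p of 0.333. The count depended on single libraries: leaving out KO replicate 1 or 2 gave 880 or 117 calls, leaving out WT replicate 1 or 2 gave 137 or 57, and leaving out either del-cIDR library gave 243.

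**Figure D2:**
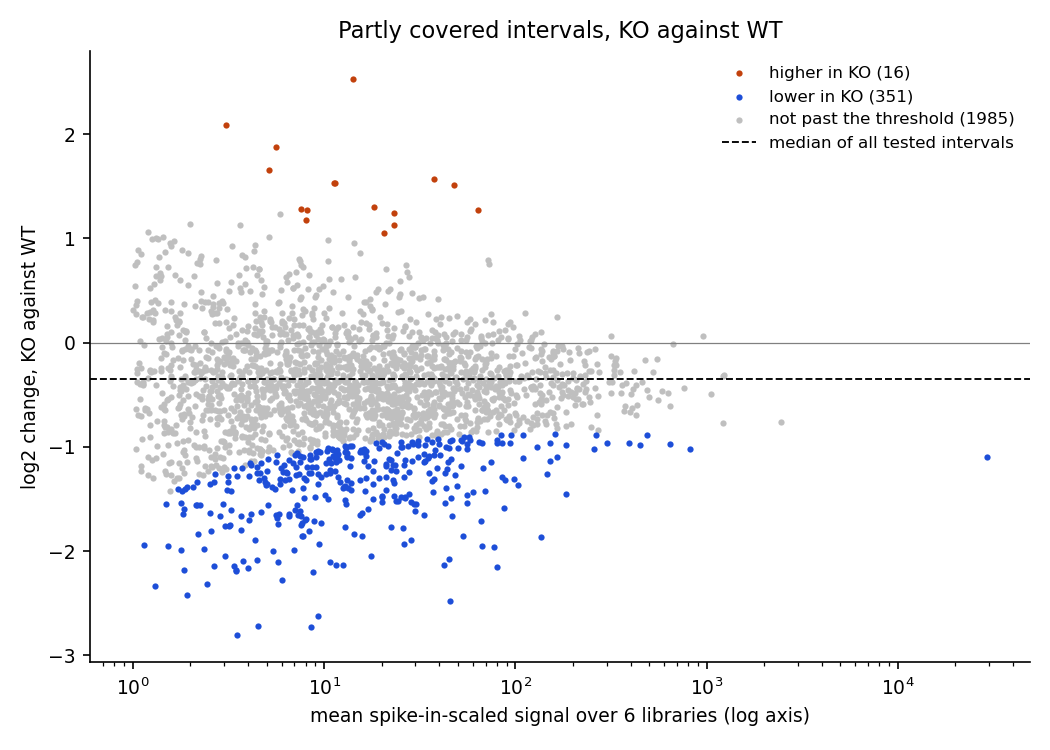
Log2 change of signal in KO against WT for the 2352 members, against the mean signal over 6 libraries (log axis). Orange points (16) rose and blue points (351) fell at an adjusted p under 0.05, grey points did not pass, and the dashed line at -0.35 is the median of all tested intervals.

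By family, ERVK members had the largest share of calls among groups of over 30 members. Of 220, 52 fell and 1 rose (24.1%), with a relative change of -0.20 ± 0.04. MaLR members gave 49 lower and 2 higher of 276 (-0.13 ± 0.03), B1 members 95 lower and 1 higher of 683 (-0.11 ± 0.04), and B4 members 44 lower and 1 higher of 298 (-0.05 ± 0.07). L1 members gave 37 lower and 8 higher of 284 (-0.03 ± 0.06), and ERVL members 7 lower and 2 higher of 72 (-0.10 ± 0.12). B2 members gave 38 lower and 0 higher of 269 (-0.08 ± 0.08), and DNA transposon members 7 lower and 0 higher of 73 (-0.13 ± 0.11). Of 30 ERV1 members, 7 fell and 1 rose, with a relative change of -0.22 ± 0.09. MIR members gave 4 lower of 47 and ID members 4 lower of 40, with 0 higher in either. All of these are on the deposited scale and stand against the background of 10.0% lower, which ID, MIR, ERVL and DNA transposon members did not exceed. Of the intervals free of repeats 11.6% were lower. After centring, the share called in either direction was 19.1% in ERVK, 14.1% in B4, 13.7% in L1, 13.5% in B1 and 11.2% in B2 members, against 12.0%. The centred L1 calls were 25 lower and 14 higher.

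Intervals that ERVL only enters and intervals that it fills had different medians in KO. The 72 ERVL members had medians of -0.17 and -0.16 in KO, against 0.12 and -0.12 in WT. The 1443 intervals with at least 50% ERVL had 0.84 and 0.91 in KO and 0.15 and -0.15 in WT. The filled intervals, too, had to average at least 1 over the 6 libraries, KO included. Intervals that reached this only through KO could raise the KO medians, and how many did was not counted. With this limit, members minus filled intervals gave -1.01 and -1.07 in KO against -0.03 and 0.03 in WT, a difference of -1.04 ± 0.04. In del-cIDR against KO the same difference was 1.15 ± 0.05, and in del-cIDR against WT it was 0.11 ± 0.05. ERVL members that are covered to at least 30% (29 members, relative change -0.09 ± 0.14) and those below 30% (43 members, -0.12 ± 0.12) lay close together. The families other than ERVL showed smaller contrasts between entered and filled intervals in KO against WT: -0.37 ± 0.03 for DNA transposons, where only 25 intervals were filled, 0.13 ± 0.04 for B2, -0.14 ± 0.18 for L1 and 0.00 ± 0.05 for B1. The contrast was 0.07 ± 0.07 for ERVK, 0.03 ± 0.07 for B4, -0.08 ± 0.05 for MaLR and -0.04 ± 0.08 for ERV1.

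**Figure D3:**
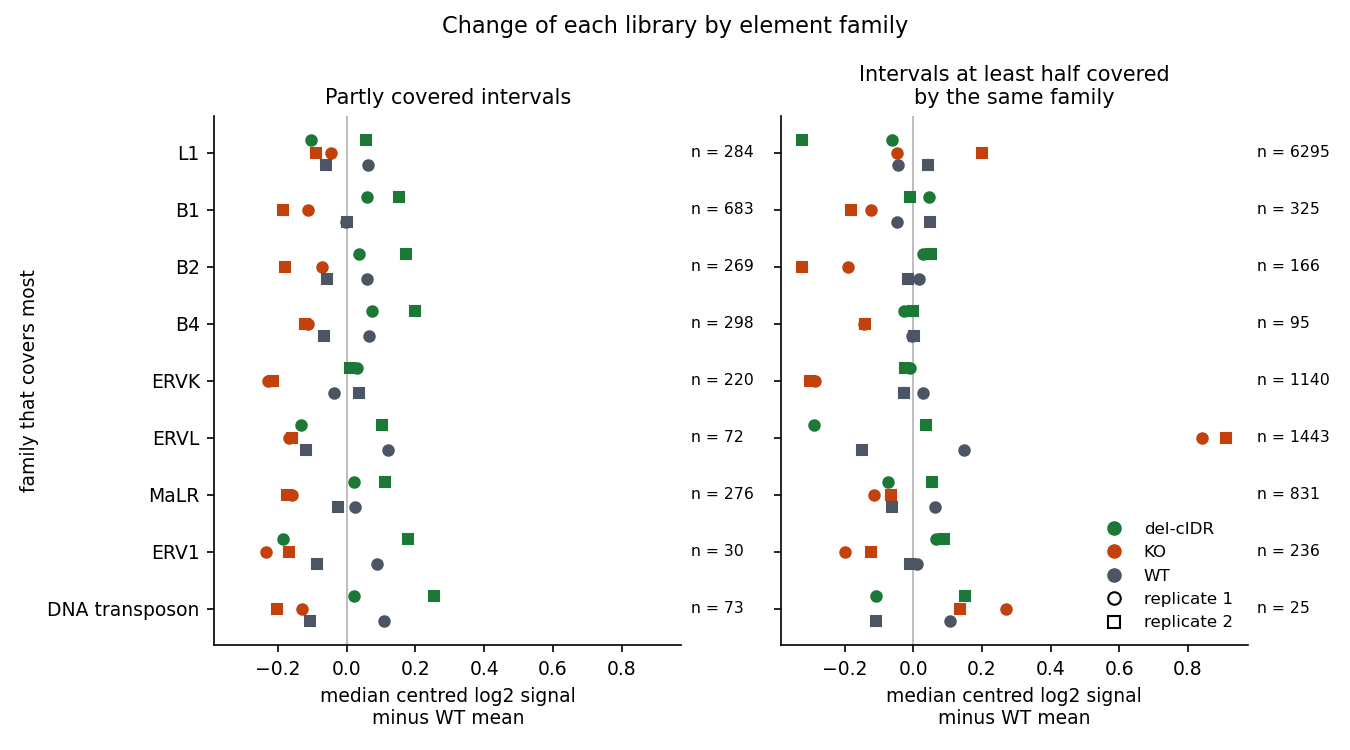
Median centred log2 signal minus the WT mean in each library, by the family that covers most of the interval, for members (left panel) and for intervals at least 50% covered by that family (right panel). In the ERVL row the KO points lie at -0.17 and -0.16 among members and at 0.84 and 0.91 among filled intervals; the number of intervals stands beside each row.

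The 16 members that rose in KO, all of which also passed after centring without overlap between libraries, lay mostly at the edge of an element and clustered in the genome. The background of this stricter call was 0.972% higher, against 16 of 2352 members. Of the 16, 14 had the element running past the edge, against 61.0% of all members and 78.5% of L1 members. The 14 include 8 L1 members that lay in the clusters given below, so they are not separate cases. L1 members with under 10% cover gave 8 higher and 12 lower of 75, and those with more cover gave 0 higher and 25 lower of 209. Of the 8 L1 members, 6 lay within 725 kb on chromosome 12, from 87563236 to 88288677, and 2 within 407 kb on chromosome 7, from 10634593 to 11041372.

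The 6 on chromosome 12 were 589 to 846 bp long, and each ended on an L1 fragment of 322 to 334 bp that covered 0.119% to 3.02% of the interval. The largest change among them was at chr12:87563236-87564073, with a signal of 73.9 and 50.8 in KO against 28.2 and 14.7 in WT (log2 change 1.57 ± 0.33, SE, adjusted p = 1.3e-04). In del-cIDR it had 23.8 and 33.9. The strongest, chr12:88216463-88217301, had 95.6 and 66.7 in KO against 35.7 and 21.5 in WT (log2 change 1.51), with 30.5 and 37.9 in del-cIDR. At both, the KO libraries were the 2 highest, and del-cIDR overlapped WT. At chr12:87886455-87887044 the cover was 0.170%. That overlap exists only with repeat starts counted from 1, as taken here, which the labels do not state.

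The rise on chromosome 12 was not limited to the members. Within the 725 kb, 13 of 18 tested intervals rose in KO and 0 fell, with a relative median of 1.58 ± 0.29, and 21 repeat loci outside intervals had a relative median of 1.54. In del-cIDR against WT, 0 of the 18 passed in either direction, and the relative median was -0.11 ± 0.40. This span was picked from the calls, so these are descriptions. How reads that match several places were placed is not stated, and whether these intervals share sequence was not tested.

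The largest gain lay on chromosome 7 apart from that pair. At chr7:40812163-40813016, an interval with a MaLR element over its edge, the signal was 39.1 and 27.3 in KO against 6.87 and 3.95 in WT. In del-cIDR it was 3.18 and 4.50. KO was 5.79-fold higher than WT (log2 change 2.53 ± 0.36, adjusted p = 1.95e-09), and the highest adjusted p on leaving out any library was 0.00598. The other 9 named gains did not hold under every omission, with highest adjusted p-values from 0.0915 to 0.299.

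A pair of ERVL members on chromosome 13, from 120403551 to 120602134, also rose in KO. At chr13:120601806-120602134, where an ERVL element covers 49.4%, the signal was 8.11 and 5.47 in KO against 0.931 and 1.48 in WT, with 0.335 and 2.09 in del-cIDR (KO 4.26-fold higher than WT, adjusted p = 3.3e-04). At chr13:120403551-120404194, with 9.02% cover, it was 24.8 and 13.6 in KO against 7.22 and 5.06 in WT. Another ERVL member between them, chr13:120588385-120589028, had the same length of 643 bp and the same cover of 9.02%. Its signal was 20.9 and 13.9 in KO against 8.85 and 7.89 in WT, and its adjusted p was 0.0552. Beyond these, an ERVK member, chr1:170805516-170806025, had 11.2 and 7.44 in KO against 3.26 and 1.97 in WT (3.16-fold higher, adjusted p = 0.00125).

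The members that fell most in KO came from many families. Of those called lower, 241 also passed after centring without overlap (background 6.96%). At chr10:22479958-22480501, with a B4 element inside, the signal was 0.396 and 0.146 in KO against 5.82 and 3.95 in WT, and 5.36 and 5.46 in del-cIDR. These are 4 and 2 reads in the KO libraries. The log2 change was -2.80 ± 0.45 (adjusted p = 1.5e-07). At chr9:37049709-37050009, a B1 member, it was 1.19 and 1.02 in KO against 9.08 and 11.2 in WT, and 17.1 and 11.4 in del-cIDR. KO was 6.61-fold lower than WT there on the log2(signal + 0.5) scale, which understates the change of low intervals.

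Similar losses were found at LTR edges. An ERVK member with 7.72% cover, chr5:91741621-91741893, had a signal of 0.495 and 0.729 in KO against 5.35 and 8.51 in WT. A MaLR member, chr7:30568594-30568861, had 1.19 and 1.46 in KO against 9.78 and 11.7 in WT. The strongest signal among the 10 largest losses was at a MaLR member on chromosome 17, chr17:34775492-34776253, with 7.52 and 5.62 in KO against 31.8 and 47.0 in WT, and 94.3 and 86.9 in del-cIDR. Its log2 change was -2.48 ± 0.33 in KO against WT (adjusted p = 6.6e-11) and 1.22 in del-cIDR against WT (adjusted p = 0.0336). At each of these 5 losses the KO libraries were the 2 lowest of the 6, and the adjusted p stayed at or under 0.0149 on leaving out any library.

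Losses clustered too. On chromosome 12, 10 members that passed on both scales lay from 19358633 to 21073402, and 6 more from 22152332 to 24115419. In the first span 13 of 16 members fell in KO and 0 rose, with a relative median of -1.28. Of all 107 tested intervals there, 48 fell and 0 rose (-0.64 ± 0.03), and 492 repeat loci outside intervals had a relative median of -0.51. In the second span 6 of 11 members fell (-0.95). Of all 83 tested intervals there, 19 fell and 1 rose (-0.35 ± 0.08), and 320 loci outside had -0.38. In del-cIDR against WT, 0 of the 16 and 2 of the 11 members rose, and none fell in either span.

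On chromosome 14, from 21499799 to 21527818, all 4 tested intervals were members and fell in KO (relative median -1.03 ± 0.08), and 56 repeat loci between them had a relative median of -1.18. Other runs showed the members lower than their surroundings. On chromosome 9, from 20945679 to 22326761, 7 of 18 members and 11 of all 69 tested intervals fell in KO (relative medians -0.40 and -0.07), while 1250 loci outside intervals had -0.07. On chromosome 17, from 32378085 to 34776253, 7 of 16 members and 15 of 130 intervals fell (-0.42 and -0.03), while 982 loci outside had -0.02. On chromosome 15, from 75749414 to 77921395, 5 of 11 members and 14 of 117 intervals fell (-0.60 and -0.01), while 901 loci outside had 0.01. The runs were picked from the calls, so their values are descriptions.

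Members moved with the interval nearest to them. Within 10 kb, 1523 members had another tested interval, at a median gap of 4832 bp. Of 223 such members that fell in KO, the neighbour fell too in 110 (49.3%), against 97 of 1300 (7.46%) for members that did not fall. Of 9 that rose, 4 had a neighbour that rose, against 7 of 1514 for the others. The neighbour was free of repeats in 721 cases, majority covered in 301 and another member in 248. Across these members, the change in the member and the change in the neighbour had a Pearson r of 0.667 in KO against WT and 0.444 in del-cIDR against WT. Both points share their libraries, and many may share a transcript, which was not tested.

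In del-cIDR against WT few members passed. On the deposited scale 25 rose and 1 fell, which is 1.11% of the set against a background of 1.13% (1.04% higher and 0.0874% lower), so the members were called about as often as intervals in general. After centring, 8 were higher and 5 lower, with a background of 0.305%, and on the ERCC scale 2 were higher and 3 lower, with a background of 0.143%. The relative change of the set was 0.02 ± 0.07, against 0.14 ± 0.11 for intervals free of repeats and -0.21 ± 0.05 for majority-covered ones. Member medians overlapped between genotypes, at 0.02 and 0.14 in del-cIDR and 0.03 and -0.03 in WT. The count was 647 and 650 without KO replicate 1 and 2, 6 and 7 without del-cIDR replicate 1 and 2, and 3 and 7 without WT replicate 1 and 2. At an unadjusted p under 0.05, 604 members passed.

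The gains that passed on both scales without overlap numbered 8 (background 0.167%), of which 5 were B1 members and 3 B4 members. The largest was chr5:31287727-31287935, with a B1 element inside. Its signal was 58.0 and 45.0 in del-cIDR against 9.31 and 4.44 in WT, and 2.18 and 1.68 in KO. Del-cIDR was 7.41-fold higher than WT (log2 change 2.89 ± 0.36, adjusted p = 1.7e-11), and the highest adjusted p on leaving out any library was 0.00351. At chr17:26386718-26386943, another B1 member, the signal was 16.4 and 14.3 in del-cIDR against 1.28 and 2.84 in WT, and KO, with 2.28 and 3.94, overlapped WT. This gain (6.49-fold, adjusted p = 4.3e-08) also held on leaving out any library, with an adjusted p of up to 0.0151.

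At the other 6, as at the member on chromosome 5, signal was highest in del-cIDR and lowest in KO, and each of them also fell in KO against WT. At chr14:32025262-32025621, a B1 member, the signal was 112 and 100.1 in del-cIDR against 20.7 and 26.5 in WT, and 7.62 and 3.50 in KO (4.44-fold higher in del-cIDR than in WT). At chr16:7765030-7766095, a B4 member, it was 90.7 and 91.6 in del-cIDR against 30.4 and 29.5 in WT, and 8.70 and 4.74 in KO. Of the 6, 2 lie within 10 kb on chromosome 17 near the MaLR member described above: chr17:34766372-34766641 had 284 and 243 in del-cIDR against 101 and 125 in WT, and chr17:34773302-34773502 had 50.1 and 58.0 in del-cIDR against 17.0 and 21.0 in WT. The remaining B1 member, chr13:111687724-111688142, had 88.5 and 79.9 in del-cIDR against 26.9 and 39.2 in WT. The remaining B4 member, chr4:55080515-55081631, had 273 and 292 in del-cIDR against 106 and 127 in WT. The call of each of these 6 was lost on leaving out some library, with highest adjusted p-values from 0.0505 to 0.691.

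The only loss that passed (background 0.0689% on both scales) was at an L1 member, chr5:64578393-64578893, with 5.19 and 1.77 in del-cIDR against 7.10 and 10.4 in WT. KO had 14.2 and 10.9 there. The log2 change was -1.34 ± 0.37 in del-cIDR against WT (adjusted p = 0.0418), and the highest adjusted p on leaving out a library was 0.508.

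**Figure D4:**
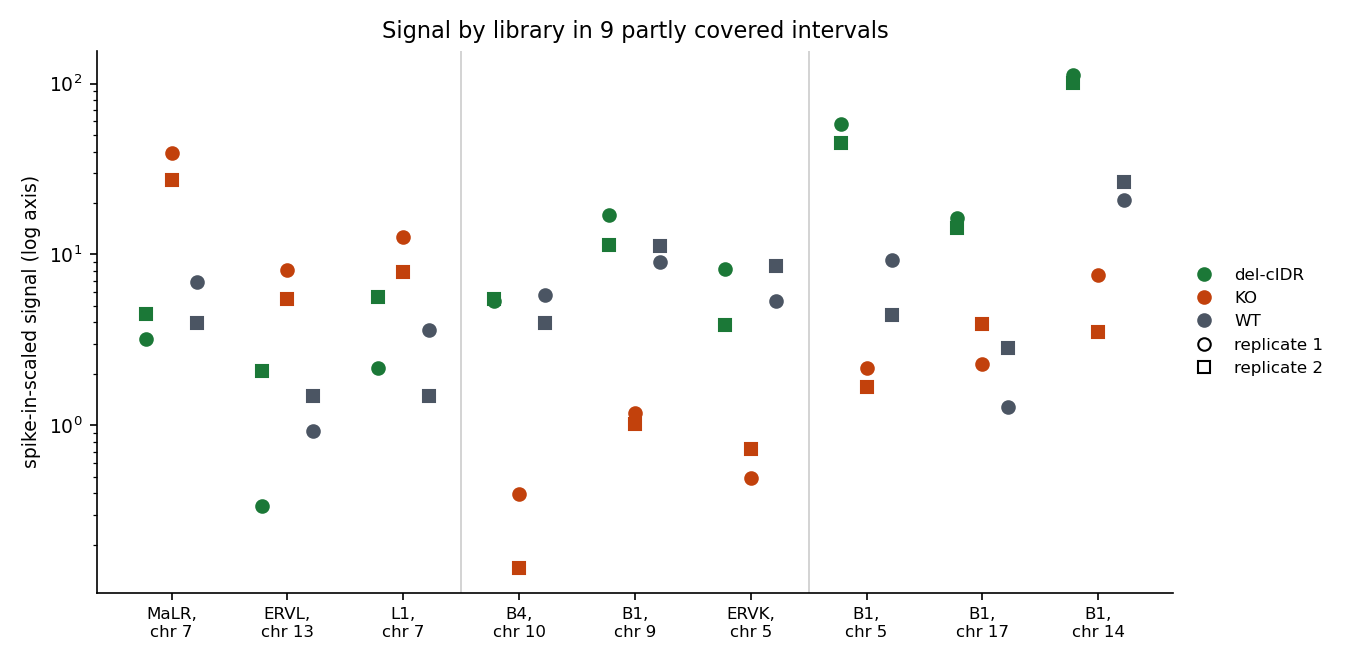
Signal in each library (log axis) at 9 members: the 3 largest rises in KO (left), the 3 largest falls in KO (middle) and the 3 largest rises in del-cIDR (right), labelled by leading family and chromosome. At the first member, MaLR on chromosome 7, the KO points (39.1 and 27.3) stand above all others, and at the B1 member on chromosome 5 on the right the del-cIDR points (58.0 and 45.0) do.

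Members were also split by how much of the interval elements cover. The relative change in del-cIDR against WT was 0.08 ± 0.11 in 514 members with under 10% cover, 0.05 ± 0.12 from 10% to 20% (493 members), 0.02 ± 0.06 from 20% to 30% (396), -0.01 ± 0.03 from 30% to 40% (385), -0.05 ± 0.02 from 40% to 50% (377) and -0.04 ± 0.01 in the 187 with 50% or more from several families. These values follow no order in del-cIDR replicate 1, whose bin medians lay between -0.01 and 0.04, and in replicate 2 the 3 least covered bins (0.23, 0.22 and 0.11) lay above the others (0.08, 0.03 and 0.03). In the most covered bin the library medians were 0.02 and 0.03 in del-cIDR against 0.01 and -0.01 in WT. Del-cIDR thus lay above WT there, although the relative change is negative. Over all tested intervals the library medians were 0.03 and 0.11 in del-cIDR, which the SEs leave out. The least covered minus the most covered members gave 0.02 and 0.20 in the del-cIDR libraries and 0.04 and -0.04 in the WT libraries, so the genotypes overlapped (difference 0.11 ± 0.10). In KO against WT the same bins ran from -0.07 ± 0.07 to -0.18 ± 0.07. There the least covered minus the most covered members gave 0.09 and 0.13 in KO and 0.04 and -0.04 in WT, without overlap (difference 0.11 ± 0.04). Members with the element inside and members with it over the edge had relative changes of -0.12 ± 0.03 and -0.09 ± 0.05 in KO against WT.

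**Figure D5:**
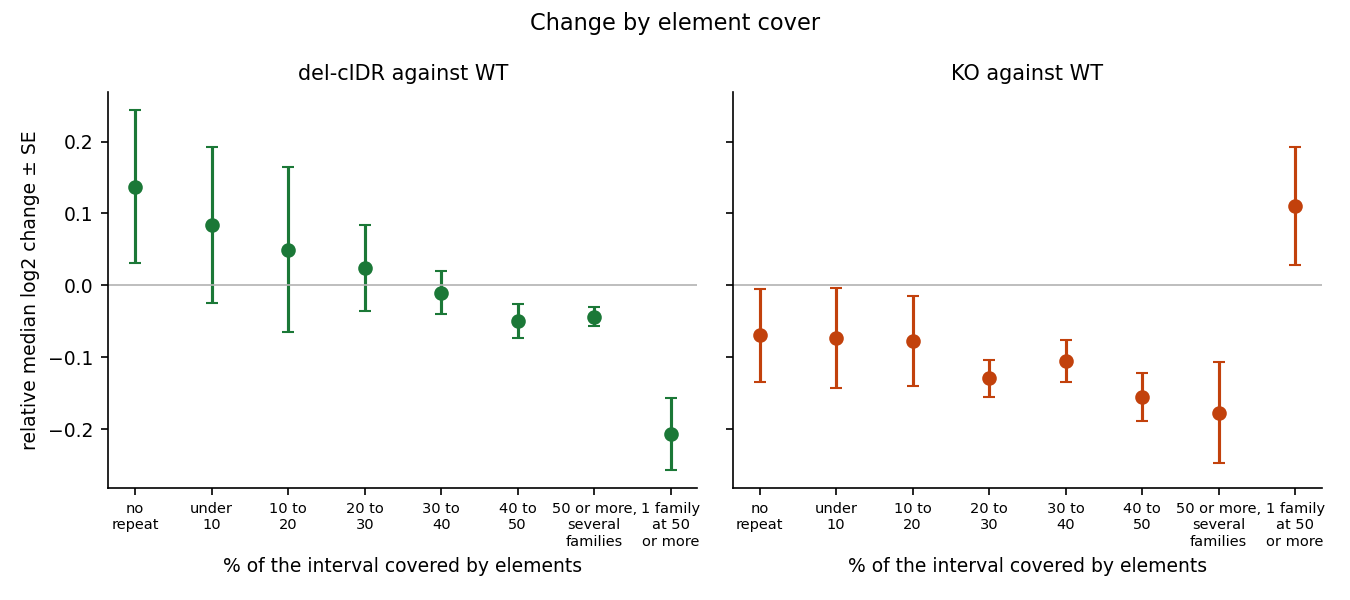
Relative median log2 change ± SE (2 libraries each) in del-cIDR against WT (left) and KO against WT (right), by the share of the interval that elements cover. The SE comes from library medians that are not reduced by those of all tested intervals. The 6 middle points are members, from 0.08 under 10% to -0.04 at 50% or more in del-cIDR; the outer points are intervals free of repeats (0.14 in del-cIDR, -0.07 in KO) and intervals with 1 family at 50% or more (-0.21 and 0.11).

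Del-cIDR against KO shares the libraries of the comparisons above and gave the most calls. On the deposited scale 1368 members were higher in del-cIDR and 41 lower, which is 59.9% of the set against a background of 48.8% (47.3% higher and 1.57% lower). Of the intervals free of repeats 68.0% were called, and of the majority-covered ones 26.3%, so the members stood between them. After centring, 516 were higher and 174 lower (29.3%, background 27.5%), and on the ERCC scale 247 were higher and 319 lower (24.1%, background 24.4%), without an excess over the background. The relative change was 0.15 ± 0.06, against 0.22 ± 0.10 for intervals free of repeats and -0.34 ± 0.09 for majority-covered ones. Calls on the deposited scale were made for 64.3% of B1 members, 62.1% of B2 members, 61.7% of B4 members, 58.6% of ERVK members, 58.3% of MaLR members, 52.8% of ERVL members and 50.4% of L1 members. Without del-cIDR replicate 1 or 2 the count was 653 or 827.

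The largest differences between the mutants repeat intervals named above. The B1 member at chr5:31287727-31287935 was 21.4-fold higher in del-cIDR than in KO, that at chr14:32025262-32025621 18.6-fold, and the MaLR member at chr17:34775492-34776253 13.0-fold. A B2 member, chr2:4964297-4965117, had 18.9 and 20.7 in del-cIDR against 0.890 and 0.802 in KO (15.1-fold higher), with 5.12 and 6.29 in WT. An ERVK member, chr2:115895935-115896256, had 35.2 and 20.1 in del-cIDR against 1.58 and 1.31 in KO (13.9-fold higher), with 5.24 and 12.1 in WT. In the other direction, a B1 member at chr2:152208463-152208740 had 5.19 and 3.21 in del-cIDR against 19.7 and 15.1 in KO (3.86-fold lower, adjusted p = 1.7e-06), with 8.15 and 11.7 in WT. Both mutants lay on opposite sides of WT there without overlap, but neither passed the test against WT, with adjusted p-values of 0.0744 in del-cIDR and 0.147 in KO.

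The elements themselves were counted in the repeat table over their own length. Of 3209 element loci that overlap members, 1824 had a mean of at least 20 and were tested with 433487 repeat loci in all. In KO against WT, 108 of them fell and 5 rose, which is 6.195% against a background of 2.58% in and outside intervals. On the ERCC scale 82 were lower and 40 higher (background 3.57%). Their relative change was -0.12. ERVK loci under members had the largest share, with 18 lower and 1 higher of 134 and a relative change of -0.34, against -0.06 for all 24976 tested ERVK loci. L1 loci gave 17 lower and 1 higher of 237 (-0.09), B2 loci 16 lower of 258 (-0.17), MaLR loci 16 lower and 1 higher of 248 (-0.15), and B1 loci 16 lower of 398 (-0.08). ERVL loci under members had a relative change of -0.16 (4 lower and 1 higher of 70), where all 9904 tested ERVL loci had 0.12. Leaving out KO replicate 1 or 2 gave 415 or 55 calls, leaving out WT replicate 1 or 2 gave 17 or 10, and leaving out del-cIDR replicate 1 or 2 gave 55 or 57. The share called depended on the level of signal. With a minimum mean 5 times as high, 10.4% of 844 loci under members were called, against a background of 5.61% of 113492.

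In del-cIDR against WT, 1 element locus under a member fell, a B2 locus, and 0 rose, against a background of 0.0651%. With limma, 287 passed at an unadjusted p under 0.05, and edgeR on whole reads called 3. On the ERCC scale 12 were lower and 0 higher (background 0.426%). On the deposited scale the count was 95 without either KO library, 2 without del-cIDR replicate 2 and 0 without either WT library, where 81 and 135 passed unadjusted without WT replicate 1 and 2. In del-cIDR against KO, 614 were higher and 18 lower (34.6%, background 19.2%), and after centring 280 were higher and 90 lower (20.3%, background 10.4%). On the ERCC scale 136 were higher and 243 lower (background 16.7%). On the deposited scale the count was 177 and 203 without del-cIDR replicate 1 and 2, 961 without KO replicate 1 and 374 without KO replicate 2. An element's change and its interval's change had a Pearson r of 0.832 in KO against WT, 0.660 in del-cIDR against WT and 0.867 in del-cIDR against KO, over 1531 members. The 2 values share reads, so these are descriptions.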

How the data were processed

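Members, groups and lists were chosen with earlier results of these data known. The deposited tables give spike-in-scaled signal for intervals and repeat loci. In both, 100% of values are whole reads times 1 factor per library within a tolerance of 1e-06, and 0 per-sample columns were left unassigned. Named in the submitters' processing notes, without versions or roles, are bedtools, featureCounts, MACS2, Picard, SAMtools, HISAT2 and fastp, and the GRCm39 build. Whether intervals were called on pooled replicates is not stated. Coordinates are as deposited on GRCm39. Interval starts were taken as counted from 0 and repeat starts from 1, which the labels do not state. No gene annotation or sequence of that build was used here, so intervals carry no gene or exon and Alkbh5 itself was not checked.

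Overlaps were found with bedtools 2.31.1. The log2 of signal plus 0.5 (repeat loci: plus 2) was fitted with limma 3.58.1 in R 4.3.3, 1 mean per genotype over 6 libraries with a variance trend, for features with a mean of at least 1 (repeat loci: 20). Benjamini-Hochberg adjustment ran over all features, with calls at 0.05. The fit was tested on simulated data. Standard errors of set medians come from medians per library, centred but not reduced by those of all tested intervals. Intervals named are the 10 largest changes per comparison and direction that passed on both scales without overlap, the strongest and most changed of each family, and the 5 highest per kb; the text gives a selection. The other ERVL interval on chromosome 13 is among these for del-cIDR against KO. Same-numbered libraries did not deviate together (correlations 0.08, -0.29 and -0.15), so numbers were not taken as pairs. Alternatives were other scales, pseudocounts, minimums, member rules, a replicate block, edgeR 4.0.16 on whole reads and leaving out each library.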

Additional observations from a re-analysis of the deposited data

How the results depend on the processing

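The relative change of the members kept its direction under all alternatives run in KO against WT and in del-cIDR against KO. Several of these could not change it: centring, the replicate blocks and leaving out a library of the genotype not compared. Other scales move all intervals nearly alike, which subtracting the shift removes, so they hardly test it either. In del-cIDR against WT the relative change was -0.02 with a minimum 5 times as high and -0.01 without del-cIDR replicate 2. Counts are of called members unless loci are named. Without a minimum mean, limma called 0 members in KO against WT (667 at an unadjusted p under 0.05), 0 in del-cIDR against WT (526 unadjusted) and 426 in del-cIDR against KO, and the relative changes were -0.29, 0.26 and 0.61. edgeR called 362, 22 and 1371 members. With a minimum 5 times as high, the relative change in del-cIDR against KO was 0.0695. Centring gave 13 members in del-cIDR against WT and 690 in del-cIDR against KO, and 5 and 370 element loci. Scaling to repeat reads outside intervals gave 10 and 758 members and 4 and 356 loci. ERCC scaling gave 5 and 566 members and 12 and 379 loci. In del-cIDR against WT a pseudocount 4 times as large gave 40 members and 3 loci, a smaller one 3 loci, the higher minimum 2 loci and edgeR 3 loci. Members with no family at 30% gave 195, 14 and 835 calls in KO against WT, del-cIDR against WT and del-cIDR against KO.

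The replicate block, which rests on numbers that do not pair these samples, gave 211 members and 72 element loci in KO against WT and 8 members in del-cIDR against WT. In del-cIDR against KO it gave 1176 members. With the del-cIDR numbers crossed, a choice made after seeing the correlations, the block gave 358, 26 and 1410 members, and 2 loci in del-cIDR against WT. Leaving out 1 library gave 57 to 880, 3 to 650 and 653 to 1593 members, 10 to 415, 0 to 95 and 177 to 961 loci, and relative changes of -0.13 to -0.08, -0.01 to 0.02 and 0.11 to 0.18, in KO against WT, del-cIDR against WT and del-cIDR against KO. ERCC scaling turned the change in del-cIDR against KO at 5 strong members: chr10:62434020-62434842 (-0.19), chr2:119732949-119734054 (-0.00137), chr2:143829936-143832200 (-0.30), chr5:123877677-123877937 (-0.11) and chr19:38928847-38929049 (-0.19). The cause of these shifts was not tested.

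The 2 libraries a genotype and the 814 to 1870 spike-in reads behind each factor limit the precision, and which scale is right was not tested.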
